A study of Mus musculus with 12 samples.

Results

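*Piezo1* and *Piezo2*, the genes that encode the Piezo family of mechanically activated ion channels, were followed through RNA-seq of palatal mesenchyme cells with reduced Srsf3. They are 2 of the 51490 genes in the count table, were picked by their symbols, and both were among the 15037 genes with enough reads to be tested. They were chosen because *Piezo2* was known from these same samples to be far lower in the knockdown cells, so their differences between shSrsf3 and scramble cells are given as a description, with no test. In brief, *Piezo2* RNA in shSrsf3 samples was near 11.7% of its scramble level without ligand and 10.1% with ligand, whereas *Piezo1* RNA was 120% and 116% of its scramble level.

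Piezo proteins assemble as trimers in the plasma membrane and open when the membrane is stretched, which lets calcium and other cations into the cell. *Piezo1* is known for its roles in blood vessels, red blood cells, and many tissues that sense pressure or flow, and *Piezo2* for touch and proprioception in sensory neurons and Merkel cells of the skin. Dominant changes in human *PIEZO2* cause distal arthrogryposis, including Gordon syndrome, in which cleft palate occurs. Srsf3, the protein that was depleted, is an SR protein, a class of RNA-binding proteins that regulate splicing and later steps in the life of an mRNA.

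The 12 samples came from iMEPM cells, an immortalized line from the palatal mesenchyme of a *Cdkn2a*-/- mouse embryo, so both the scramble and the shSrsf3 cells lack *Cdkn2a*. Cells carried a stably integrated, lentiviral scramble shRNA or an shRNA against *Srsf3*, and each shRNA was represented by a single line that had been selected with puromycin and sorted for GFP. All cells were serum starved. In 6 samples they then received PDGF-AA, a ligand of the receptor PDGFRα, at 10 ng/mL over 1 hr (+PDGF-AA), and in the other 6 no ligand (-PDGF-AA). There were 3 biological replicates in each of the 4 conditions. Because each shRNA has 1 line, a difference between scramble and shSrsf3 samples cannot be told apart from a difference between those lines, and p-values measure only the spread between cultures of the same line. The design asks how Srsf3 depletion and PDGF-AA, alone and in combination, alter the level of each gene.

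Total counts per sample were between 30958966 and 76123359. *Srsf3* itself averaged 206 ± 6.59 CPM (scramble) and 162 ± 1.46 CPM (shSrsf3) in unstimulated samples (SD, n = 3), and 222 ± 8.07 and 165 ± 4.33 CPM with ligand (log2 fold changes of -0.34 and -0.43, adjusted p = 7.95e-06 and 9.54e-07 by edgeR's quasi-likelihood test). These levels are of RNA, and the authors' western blot showed a larger decrease of Srsf3 protein in the shSrsf3 line. CPM are counts relative to a library size of 1e6, scaled between libraries by the trimmed mean of M-values (TMM). Mesenchymal genes were abundant in all samples, although *Tbx22*, which marks the palate, was at 0 throughout and *Msx1* did not exceed 109 counts in any sample. The 2 defining Merkel cell regulators *Atoh1* and *Sox2* were at 0, and the 5 Merkel cell markers summed to no more than 0.527 CPM in any sample.

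*Piezo2* (ENSMUSG00000041482.19) lies on the minus strand of chromosome 18 from 63143284 to 63520260 of GRCm39, a locus of 377 kb, and its canonical transcript has 52 exons and 10517 bases. No sequence of 31 bases occurred in transcripts of both members, and the share of such sequences that occurred in transcripts of any other gene was 0.0517% for *Piezo2* and 0% for *Piezo1*.

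*Piezo1* (ENSMUSG00000014444.19) lies on the minus strand of chromosome 8 from 123208437 to 123278072 of GRCm39, and its canonical transcript has 51 exons and 8223 bases. Its 3′ end overlaps *Ctu2*, a tRNA-modifying enzyme gene on the opposite strand with 771 to 1928 counts per sample. The libraries were stranded.

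CACACA is a short motif of the kind described for Srsf3 binding, and *Piezo1* held 5 copies of it in its canonical transcript, all in coding sequence. The 3 that lie within a single exon together with their flanking bases are shown, so that the motif can be read in its setting. The motif is in capitals, 5′ to 3′ along the transcript:
Piezo1 exon 12, chr8:123226388-123226411, minus strand, GRCm39: ggactggaaCACACAcgctaccct
Piezo1 exon 17, chr8:123224193-123224216, minus strand, GRCm39: ccaccaggcCACACAggtccctga
Piezo1 exon 41, chr8:123212413-123212436, minus strand, GRCm39: gacattctgCACACAaagtaccgg

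The *Piezo2* transcript held 3 copies, fewer than *Piezo1* despite its greater length, which amounts to 0.285 per kb against 0.608 per kb in *Piezo1* and a median of 0.334 per kb over the canonical transcripts of tested genes. The motif occurred at least once in 64.1% of these 14773 transcripts. The purine-rich hexamer GAAGAA, a motif that many SR proteins recognize, was found 25 times in *Piezo2* (2.38 per kb, above 94.2% of tested genes) and 5 times in *Piezo1* (0.608 per kb), against a median of 0.685 per kb and a presence in 81.7% of transcripts. The authors mapped Srsf3 binding in iMEPM cells and listed GAAGAA among the most enriched motifs with PDGF-AA, and CACACA among those without it. Matches were counted on the transcript strand, overlapping copies included, and describe letters in a sequence, not binding. The transcripts differed in base composition as well, with a GC content of 59.0% for *Piezo1* and 50.0% for *Piezo2* (median 50.1%).

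*Piezo2* was low in every shSrsf3 sample and high in every scramble sample. In scramble samples without ligand, replicates 1, 2, and 3 had 2885, 3068, and 4525 counts, or 74.95, 70.5, and 75.0 CPM. In shSrsf3 samples without ligand, they had 691, 524, and 337 counts, or 8.95, 7.96, and 9.05 CPM. The groups were far apart, and the lowest scramble sample was 7.80 times the highest shSrsf3 sample.

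With ligand the separation was similar. Scramble samples had 4568, 4579, and 4991 counts (75.9, 81.1, and 77.1 CPM), and shSrsf3 samples had 295, 285, and 212 counts (7.88, 8.83, and 6.82 CPM). Here the lowest scramble sample was 8.59 times the highest shSrsf3 sample. The fitted log2 fold changes of *Piezo2* between shSrsf3 and scramble samples were -3.09 (SE 0.0708) without ligand and -3.31 (SE 0.0747) with ligand. Without the 3 libraries in which the smallest share of reads had been assigned to transcripts (replicates 1 and 2 of scramble -PDGF-AA, replicate 2 of scramble +PDGF-AA), they were -3.13 and -3.29. In bulk samples, fewer cells with *Piezo2* and less *Piezo2* RNA in each cell cannot be told apart.

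*Piezo1* showed the opposite, smaller difference. Its scramble samples without ligand had 14699, 15770, and 23044 counts, or 381.9, 362.5, and 382.0 CPM, and its shSrsf3 samples had 34397, 28198, and 17851 counts, or 445, 428, and 479 CPM. With ligand, scramble samples had 25102, 22843, and 27838 counts (417, 405, and 430 CPM) and shSrsf3 samples 17604, 15503, and 15495 counts (470.4, 480.2, and 499 CPM). All shSrsf3 samples were above all scramble samples at the same ligand state. The log2 fold changes were 0.26 (SE 0.0441) without ligand and 0.21 (SE 0.0441) with ligand, and they were 0.23 and 0.19 without the 3 libraries named for *Piezo2*.

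**Figure D1:**
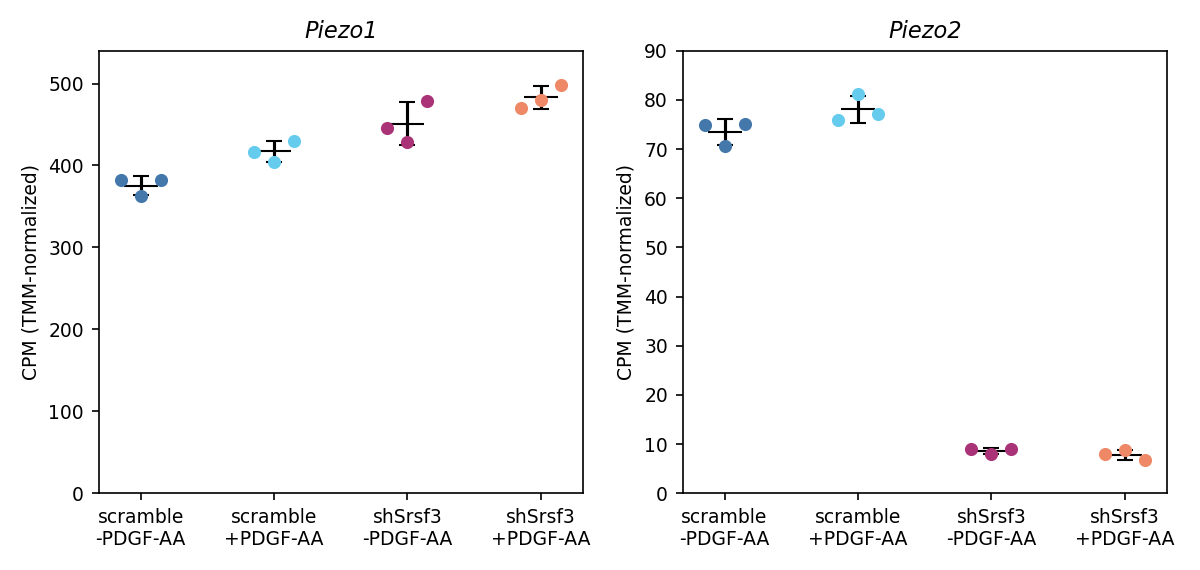
CPM (TMM-normalized, axes from 0) of *Piezo1* and *Piezo2* in each sample of the 4 conditions, with 1 point per sample and the mean ± SD (n = 3) in black. *Piezo2* was between 70.5 and 81.1 CPM in the 6 scramble samples and between 6.82 and 9.05 CPM in the 6 shSrsf3 samples, whereas *Piezo1* had means from 375 to 483 CPM.

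These differences are the ones for which the pair was chosen, and they are set here against all genes without any test. DE genes, which combine an adjusted p at or under 0.05 with an at least 2-fold difference, made up 5.75% of the tested genes without ligand (2.99% higher and 2.76% lower in shSrsf3 samples) and 5.42% with ligand (2.85% and 2.57%). The adjusted p alone, whatever the fold change, was passed by 45.9% of the tested genes without ligand (22.2% higher, 23.7% lower) and 41.0% with ligand (20.3% higher, 20.7% lower). A log2 fold change above that of *Piezo1* was seen for 20.5% and 23.99% of the tested genes. Groups did not overlap in the direction of *Piezo1*, higher in shSrsf3 samples, for 26.2% and 25.5% of the tested genes, and in that of *Piezo2* for 27.1% in both comparisons. By log2 fold change, *Piezo2* ranked 31 and 25 from the lowest of all 15037 tested genes without and with ligand. Of the 4431 tested genes with a mean count at least as high as that of *Piezo2*, 2247 counts, only *Igfbp2* had a lower log2 fold change without ligand (-3.31), and 0 genes did with ligand.

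**Figure D2:**
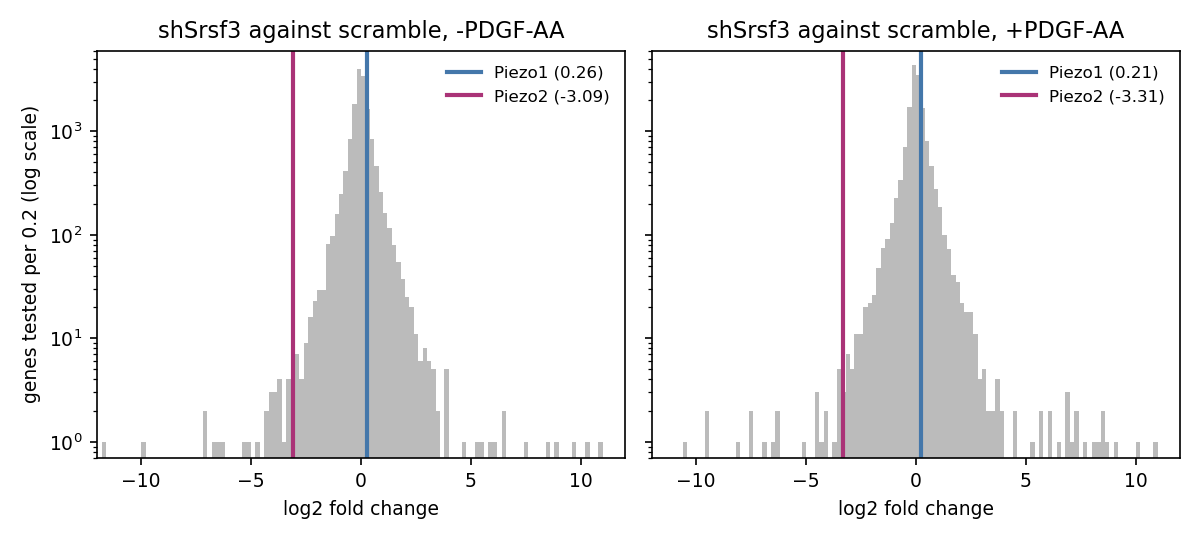
Number of tested genes (log axis) in bins of 0.2 in log2 fold change between shSrsf3 and scramble samples, without and with PDGF-AA, for all 15037 genes. *Piezo1* lies inside the main body of genes at 0.26 and 0.21, and *Piezo2* in the lower tail at -3.09 and -3.31.

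Per length of the canonical transcript, *Piezo1* was the more abundant member in all conditions. It was at 45.7 ± 1.36 CPM per kb in scramble samples without ligand and 50.8 ± 1.55 CPM per kb with ligand, and at 54.8 ± 3.16 and 58.7 ± 1.75 CPM per kb in the corresponding shSrsf3 samples (SD, n = 3). *Piezo2* was at 6.99 ± 0.244 and 7.42 ± 0.262 CPM per kb in scramble samples and at 0.823 ± 0.0573 and 0.746 ± 0.0953 CPM per kb in shSrsf3 samples. The level of *Piezo2* per 100 of *Piezo1* on this scale was therefore 15.3 ± 0.0800 and 14.6 ± 0.901 in scramble samples and 1.50 ± 0.0624 and 1.27 ± 0.187 in shSrsf3 samples. Transcript lengths are those of the annotation, and the isoforms that the cells used were not measured here.

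The order of the conditions was not the same for the pair. Mean *Piezo1* CPM was lowest in scramble -PDGF-AA samples (375 ± 11.2), followed by scramble +PDGF-AA (417 ± 12.7), shSrsf3 -PDGF-AA (451 ± 25.97), and shSrsf3 +PDGF-AA samples (483 ± 14.4). Only the first step of this order was free of overlap, as the highest scramble +PDGF-AA sample (430 CPM) was above the lowest shSrsf3 -PDGF-AA sample (428 CPM), and the highest of the latter (479 CPM) was above the lowest shSrsf3 +PDGF-AA sample (470.4 CPM). Mean *Piezo2* CPM was lowest in shSrsf3 +PDGF-AA samples (7.84 ± 1.00), followed by shSrsf3 -PDGF-AA (8.65 ± 0.603), scramble -PDGF-AA (73.5 ± 2.57), and scramble +PDGF-AA samples (78.1 ± 2.75). The shSrsf3 conditions overlapped, and the scramble conditions were separated by less than 1 SD (75.0 CPM as the highest without ligand and 75.9 CPM as the lowest with ligand).

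The effect of PDGF-AA was not used to choose the members and was tested. Upon stimulation of scramble cells, *Piezo1* had a log2 fold change of 0.15 (SE 0.0441) but missed the threshold (adjusted p = 0.0756 by edgeR's quasi-likelihood test). All of its stimulated samples were above all unstimulated samples, as were those of 8.92% of the tested genes. In this comparison 4.04% of the tested genes passed the adjusted p alone, and 0.2% were DE genes. The call depended on the procedure. *Piezo1* passed when genes with few counts were not filtered (adjusted p = 0.0106 by edgeR's quasi-likelihood test) and with DESeq2 (0.0135). These settings called 1289 and 843 genes by adjusted p alone, against 608. *Piezo1* missed the threshold with the size factors of DESeq2 (0.0650) and with only the scramble groups in the fit (0.113, both by edgeR's quasi-likelihood test). In the 12 fits that each left out 1 sample, the adjusted p was between 0.0366 and 0.285 by the same test in edgeR. It was under 0.05 only without replicate 3 of scramble -PDGF-AA (0.0366) or of shSrsf3 -PDGF-AA (0.0463). The log2 fold change was between 0.13 and 0.18 in all of these. Without the 3 libraries of the lowest mapping rate, the log2 fold change was 0.15, with replicate 3 as the only scramble -PDGF-AA sample left.

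In shSrsf3 cells, *Piezo1* had a log2 fold change of 0.10 upon stimulation (SE 0.0441, adjusted p = 0.500 by edgeR's quasi-likelihood test), and the samples overlapped. *Piezo2* had a log2 fold change of 0.09 in scramble cells (SE 0.0615, adjusted p = 0.497 by edgeR's quasi-likelihood test), with an interval of ±2 SE from -0.04 to 0.21. Without the 3 libraries of the lowest mapping rate it was 0.03, with replicate 3 as the only scramble -PDGF-AA sample left. In shSrsf3 cells the log2 fold change of *Piezo2* was -0.14 (SE 0.0807, interval -0.30 to 0.03, adjusted p = 0.659 by the same test in edgeR). Neither gene passed the threshold in shSrsf3 cells.

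Whether the ligand effect differed between the lines was tested as an interaction. It was -0.05 for *Piezo1* (SE 0.0624, adjusted p = 0.908 by edgeR's quasi-likelihood test) and -0.22 for *Piezo2* (SE 0.101, unadjusted p = 0.0467, adjusted p = 0.874 by the same test in edgeR). An interaction was called for 2 genes in all, 0.0133% of those tested, and 833 genes had an unadjusted p under 0.05. *Pdgfra*, the gene of the receptor, was itself lower in shSrsf3 samples, with log2 fold changes of -0.53 without and -0.36 with ligand (adjusted p = 5.33e-06 and 1.85e-04 by edgeR's quasi-likelihood test). Its part in the ligand effects was not tested.

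Other channels that open upon mechanical force or have been proposed to do so were read from a list of 28, of which 18 were tested. DE genes were 2 higher and 0 lower without ligand (11.1%) and 1 higher and 0 lower with ligand (5.56%), beside 5.75% and 5.42% of all tested genes. With an adjusted p alone, 6 were higher and 5 lower without ligand (61.1%) and 5 and 5 with ligand (55.6%), beside 45.9% and 41.0% of all tested genes, and the median log2 fold change was 0.07 and 0.00, beside -0.02 and -0.01 over all tested genes. *Trpv2*, a calcium-permeable TRP channel, rose from 11.02 ± 0.393 to 25.2 ± 2.14 CPM without ligand and from 10.9 ± 0.215 to 22.8 ± 0.439 CPM with ligand (log2 fold changes of 1.19 and 1.06, SE 0.0592 and 0.0599, adjusted p = 3.49e-09 and 1.32e-08 by edgeR's quasi-likelihood test). The other gene called, the potassium channel gene *Kcnk10*, had only 2 to 17 counts per sample. Over the 12 fits that each left out 1 sample, the number of DE channels without ligand was between 1 and 3.

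The 4 most abundant tested genes of the list had differences below the 2-fold minimum. *Pkd1*, which encodes polycystin-1, had the highest level of the list, with 224 ± 19.7 (scramble) and 301 ± 31.2 CPM (shSrsf3) in unstimulated samples (log2 fold change 0.42, and 0.21 with ligand). *Pkd2*, its channel partner, had log2 fold changes of 0.12 and 0.11. *Trpm7*, a channel fused to a kinase, was at 102 ± 5.76 and 99.9 ± 3.18 CPM without ligand, and *Tmem63a*, an OSCA/TMEM63 channel gene, at 104 ± 3.78 and 112 ± 6.25 CPM. On the lower side, *Kcnk2*, which encodes the stretch-activated potassium channel TREK-1, fell by 0.97 and 0.82 on the log2 scale, and *Asic1*, an acid-sensing channel gene, fell by 0.88 and 0.60. The remaining 3 lower genes, *Panx1*, *Tmem87a*, and *Tmem120a*, had log2 fold changes between -0.56 and -0.11. *Trpv4* and *Tmem63b* were higher, with log2 fold changes of 0.47 and 0.43 and of 0.30 and 0.33. *Kcnk2*, *Asic1*, *Panx1*, *Tmem87a*, *Tmem120a*, *Trpv4*, and *Tmem63b* were singled out after their values were seen.

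**Figure D3:**
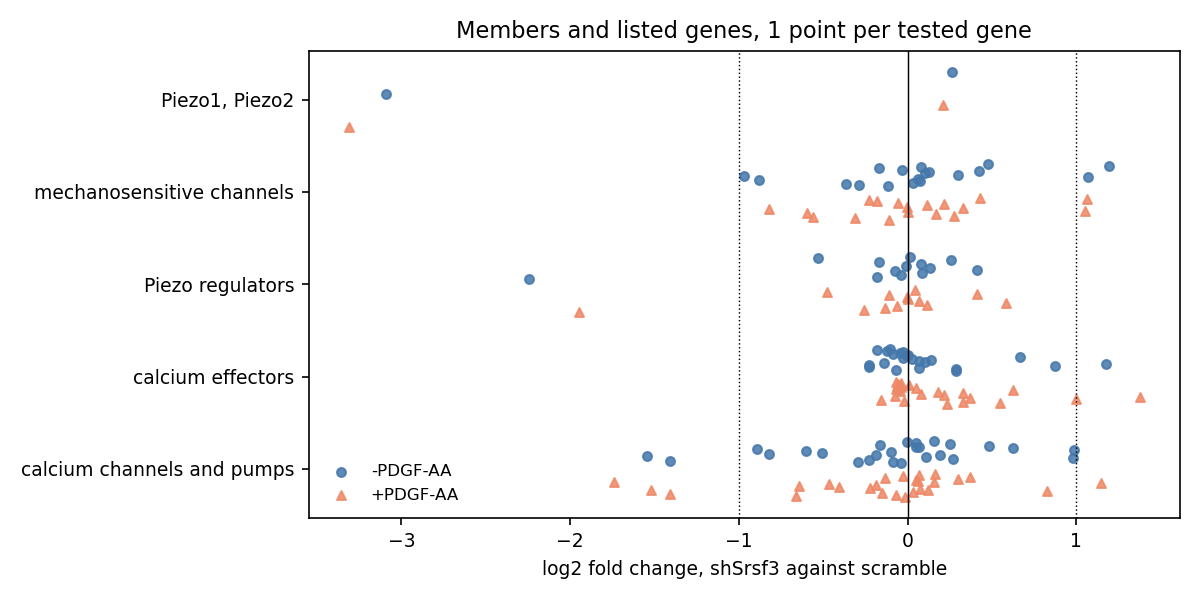
log2 fold change between shSrsf3 and scramble samples for *Piezo1*, *Piezo2*, and the tested genes of 4 lists, with 1 point per gene, circles for -PDGF-AA and triangles for +PDGF-AA, and dotted lines at a fold change of 2. The *Piezo2* points at -3.09 and -3.31 lie below those of all listed genes, the nearest being *Cdh1* at -2.24 and -1.95.

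Genes whose products bind Piezo channels, tune them, or tether them to membrane and cytoskeleton formed a list of 15, of which 13 were tested. There was 1 DE gene, lower in both comparisons (7.69% each, beside 5.75% and 5.42% of all tested genes). With an adjusted p alone, 3 were higher and 4 lower without ligand (53.8%, beside 45.9%) and 2 and 4 with ligand (46.2%, beside 41.0%), and the medians were -0.01 in both. That DE gene was *Cdh1*, which encodes E-cadherin. It is also on the list of epithelial markers. It fell from 2.36 ± 0.0271 to 0.484 ± 0.0936 CPM without ligand and from 2.17 ± 0.593 to 0.563 ± 0.111 CPM with ligand (log2 fold changes of -2.24 and -1.95, adjusted p = 2.65e-06 and 1.80e-05 by edgeR's quasi-likelihood test), so it was a gene of very low level in these mesenchymal cells.

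The abundant members of this list differed by far less. *Flna*, which encodes the actin crosslinker filamin A, was at 3435 ± 300.5 (scramble) and 3648 ± 132 CPM (shSrsf3) in unstimulated samples. *Cav1*, the caveolin of membrane invaginations, was at 1054 ± 18.2 and 1027 ± 15.2 CPM. *Anxa6*, a calcium-dependent membrane-binding protein gene, had log2 fold changes of 0.14 and 0.07, and *Ctnnb1*, which encodes β-catenin, fell by 0.18 and 0.26 on the log2 scale. *Mdfi* and *Mdfic*, which encode proteins that associate with Piezo channels as auxiliary subunits, differed from each other. *Mdfi* fell by 0.53 and 0.48 on the log2 scale (adjusted p = 9.89e-05 and 4.02e-04 by edgeR's quasi-likelihood test), while *Mdfic* was at 61.8 ± 1.16 and 62.5 ± 1.93 CPM without ligand, and both genes were singled out after their values were seen. Upon stimulation of scramble cells, 1 gene of the list passed the adjusted p alone in the lower direction (7.69%, beside 2.04% of all tested genes), *Rapgef3*, which encodes the cAMP sensor EPAC1, with a log2 fold change of -0.27 (adjusted p = 0.0441 by edgeR's quasi-likelihood test).

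Calcium that enters through Piezo channels is read by calmodulin, calcineurin, NFAT factors, CaM kinases, and calpains. All 23 genes of a list of these were tested. DE genes were 1 higher and 0 lower without ligand (4.35%) and 2 and 0 with ligand (8.7%). The shares of DE genes over all tested genes were 5.75% and 5.42%. With an adjusted p alone, 4 were higher and 4 lower without ligand (34.8%) and 7 and 1 with ligand (34.8%). These shares by adjusted p alone lay below the 45.9% and 41.0% of all tested genes, and the medians were -0.00 and 0.05. *Rcan2*, which encodes a regulator of calcineurin, rose from 0.994 ± 0.114 to 2.28 ± 0.274 CPM without ligand (log2 fold changes of 1.17 and, with ligand, 1.38, adjusted p = 1.26e-04 and 4.02e-05 by edgeR's quasi-likelihood test). *Camk2b* was the other DE gene with ligand, at 9 to 35 counts per sample, and 1 rather than 2 effectors were DE genes in 10 of the 12 fits that each left out 1 sample. The abundant *Capn2*, at 501 ± 5.11 and 486 ± 3.76 CPM, and *Capns1*, at 321 ± 18.9 and 302 ± 4.54 CPM without ligand, are calpain subunit genes, and *Calm2*, a calmodulin gene, had a log2 fold change of -0.18 without ligand.

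Other routes of calcium entry, release, and removal formed a list of 38, of which 26 were tested. DE genes were 0 higher and 2 lower without ligand (7.69%) and 1 higher and 3 lower with ligand (15.4%), beside 5.75% and 5.42% of all tested genes. With an adjusted p alone, 7 were higher and 8 lower (57.7%, beside 45.9%) and 6 and 7 (50.0%, beside 41.0%), and the medians were -0.02 in both. *Cacnb2*, a subunit gene of voltage-gated calcium channels, fell from 24.1 ± 2.69 to 8.28 ± 0.618 CPM without ligand and from 21.6 ± 1.802 to 7.53 ± 0.620 CPM with ligand. *Atp2b4*, which encodes a plasma membrane calcium pump, fell from 136 ± 2.62 to 51.3 ± 2.88 CPM and from 129.9 ± 1.3996 to 49.0 ± 1.02 CPM. *Cacna1a*, the pore gene of P/Q-type channels, was higher in shSrsf3 samples, at 47.6 ± 1.13 against 24.02 ± 2.01 CPM without ligand and 51.0 ± 3.42 against 23.01 ± 1.91 CPM with ligand. The log2 fold changes were -1.55 and -1.52 for *Cacnb2*, -1.41 in both for *Atp2b4*, and 0.99 and 1.15 for *Cacna1a*, and their largest adjusted p was 9.82e-08 by edgeR's quasi-likelihood test.

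*Ryr3*, an intracellular calcium release channel gene with 6 to 53 counts per sample, fell by 0.89 and 1.74 on the log2 scale. Among the most abundant genes of the list, *Cacna1g*, the pore gene of a T-type channel, fell by 0.51 and 0.64, *Itpr3*, an IP3 receptor gene, was at 112 ± 7.70 and 117 ± 6.63 CPM without ligand, and *Atp2b1* fell by 0.23 without ligand. Upon stimulation of scramble cells, *Orai3*, a store-operated channel gene, was the only one with an adjusted p of 0.05 or less (3.85%, beside 4.04% of all tested genes), at a log2 fold change of -0.22 (adjusted p = 0.0435 by edgeR's quasi-likelihood test). It did not pass with DESeq2 (adjusted p = 0.0893). None of the mechanosensitive channels or calcium effectors passed in scramble cells in edgeR's test (2 and 3 had an unadjusted p under 0.05, and DESeq2 called 1 of each). In shSrsf3 cells 0 of the 80 tested genes of the 4 lists passed upon stimulation with edgeR and 0 with DESeq2 (8 had an unadjusted p under 0.05 in edgeR's test), beside 0.565% of all tested genes with an adjusted p alone and 0.0399% that were DE genes.

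The genes around *Piezo2* were read beside it. Of the 5 nearest tested genes on each side, 0 were DE genes in the higher and 1 in the lower direction in each comparison. That is 10.0%, beside 5.75% and 5.42% of all tested genes. With an adjusted p alone, 2 were higher and 3 lower without ligand (50.0%, beside 45.9% of all tested genes). With ligand 2 were higher and 2 lower (4 of 10, beside 41.0%). *Napg*, a vesicle fusion gene whose end lies 9.90 kb downstream of *Piezo2*, had log2 fold changes of 0.03 in both. The next gene, *Apcdd1*, an inhibitor of Wnt signaling 49.0 kb downstream, was the lower DE gene, at 7.16 ± 1.76 CPM (scramble) and a mean of 3.27 CPM (shSrsf3) in unstimulated samples (log2 fold changes of -1.11 and -1.16, adjusted p = 2.76e-05 and 3.26e-05 by edgeR's quasi-likelihood test). Without ligand its difference was under 2-fold without scramble -PDGF-AA replicate 1 (log2 fold change -0.91) and without the 3 libraries of the lowest mapping rate (-0.79). The latter fit had replicate 3 as its only scramble -PDGF-AA sample. Further downstream, *Spink10* and *Fbxo38* did not pass in either comparison. Upstream, *Txnl1* (0.16 and 0.17) and *Fech*, the last enzyme gene of heme synthesis (0.62 and 0.64), rose and *Wdr7* fell by 0.22 and 0.37, while *Gm6789* and *Rps15-ps3* share 56.8% and 93.0% of their 31-base sequences with other genes and are uncertain.

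Around *Piezo1*, 1 of 10 neighbours was a higher DE gene in each comparison (10.0%, beside 5.75% and 5.42% of all tested genes). With an adjusted p alone, 7 were higher and 1 lower without ligand (80.0%, beside 45.9% of all tested genes). With ligand 3 were higher and 1 lower (4 of 10, beside 41.0%). The DE gene was *Snai3*, with a mean of 10.2 counts, and it was no longer one with ligand in 7 of the 12 fits that each left out 1 sample. *Galns*, a lysosomal sulfatase gene, rose by 0.84 and 0.96, and *Cyba*, a subunit gene of NADPH oxidase, by 0.63 and 0.70 on the log2 scale. *Cdt1*, *Aprt*, *Ctu2*, and *Mvd* passed without ligand, with log2 fold changes from 0.14 to 0.19, beside 0.26 for *Piezo1*. *Trappc2l* fell by 0.38 and 0.26, and *Rnf166* and *Cbfa2t3* did not pass in either comparison.

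**Figure D4:**
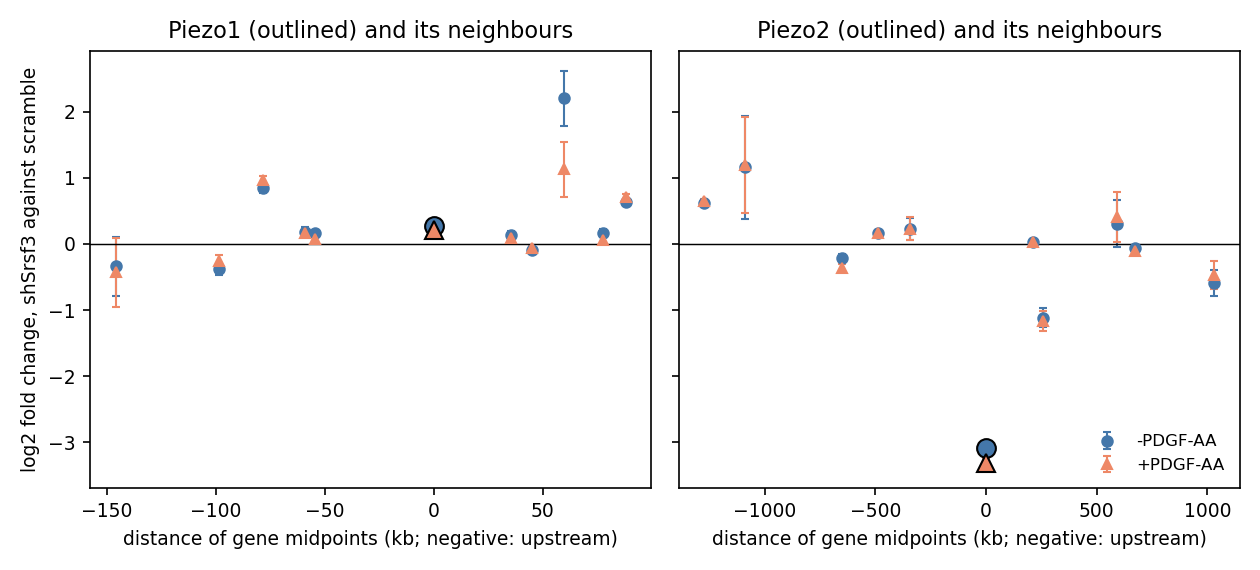
log2 fold change (± SE) between shSrsf3 and scramble samples of the 5 nearest tested genes on each side of *Piezo1* and *Piezo2*, against the distance between gene midpoints in kb (upstream negative), with the members outlined in black. *Piezo2* at -3.09 and -3.31 stands apart from neighbours that lie between -1.16 and 1.19.

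Both members belong to the genes with the most exons, since 99.1% and 99.2% of the tested genes have fewer exons than *Piezo1* and *Piezo2* and the median is 8. Of the 265 other tested genes with 40 or more exons, 14 were higher and 10 lower DE genes without ligand (9.06%) and 15 and 7 with ligand (8.3%). With an adjusted p alone, 106 were higher and 38 lower without ligand (54.3%, beside 45.9% of all tested genes, 22.2% higher and 23.7% lower) and 69 and 46 with ligand (43.4%, beside 41.0%, 20.3% higher and 20.7% lower), and the medians were 0.12 and 0.05. Of the 365 other tested genes whose locus spans 300 kb or more, as that of *Piezo2* does, 26 were higher and 30 lower DE genes without ligand (15.3%) and 29 and 28 with ligand (15.6%), with medians of -0.01 and -0.02. The shares of DE genes over all tested genes were 5.75% and 5.42%.

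The genes whose profile over the 12 samples was most like that of *Piezo2* were ranked by the Pearson correlation of log2 CPM among 12262 genes with a mean count of 50 or more. They were *Igfbp5* (r = 0.999), *Kif26b*, *Igfbp2*, *Serpine2*, and *Lrp5* (r = 0.998 each). *Igfbp5* and *Igfbp2* encode binding proteins of insulin-like growth factors, *Kif26b* a kinesin family protein, *Serpine2* a secreted protease inhibitor, and *Lrp5* a Wnt co-receptor. The samples fall into scramble and shSrsf3 clusters, so that such a value mostly registers a large, even difference between these lines, and 632 genes had r above 0.95. In size, *Kif26b* (-2.93 and -3.14) and *Igfbp2* (-3.31 and -3.29) came close to *Piezo2*, whereas *Lrp5* had log2 fold changes of -1.23 and -1.24.

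For *Piezo1* the 5 most alike genes were *Rin1* (r = 0.979), *Slc38a1* (0.974), *Zfp469* (0.973), *Flt1* (0.972), and *Mki67* (0.971), and 40 genes had r above 0.95. *Rin1* encodes a Ras effector, *Slc38a1* a glutamine transporter, *Flt1* a VEGF receptor, and *Mki67* the proliferation marker Ki-67. All 5 were higher in shSrsf3 samples and, on average, with ligand, with log2 fold changes from 0.20 to 0.59 between the lines. The correlation of *Piezo1* with *Piezo2* was -0.829 over the same samples, which share lines and libraries, and is given as a description only.

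**Figure D5:**
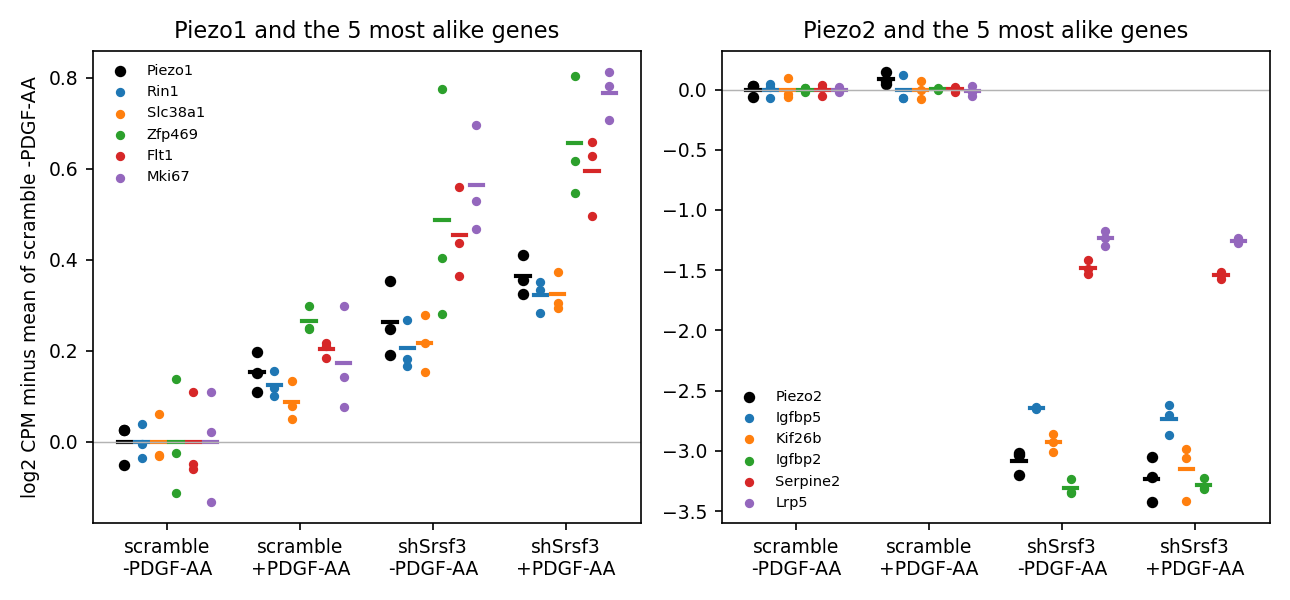
log2 CPM of *Piezo1* and *Piezo2* (black) and the 5 most alike genes of each, by condition, as the difference from the gene's mean in scramble -PDGF-AA samples, with 1 point per sample and short bars for the means. *Igfbp2* and *Kif26b* follow *Piezo2* to near -3 in shSrsf3 samples, and *Piezo1* and its most alike genes are higher in each shSrsf3 condition than in the scramble condition at the same ligand state.

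Genes that mark other cell types were read from fixed lists beside these results. Summed over their markers, sensory neuron genes were at 62.0 to 68.3 CPM in scramble and 45.9 to 49.3 CPM in shSrsf3 samples, nearly all of it from *Ntrk3* and *Tubb3*, and endothelial genes at 30.5 to 34.6 and 19.1 to 22.6 CPM, mostly from *Tek*. Of the tested genes in these lists, 1 was higher and 2 lower out of 4 sensory neuron markers and 2 higher and 1 lower out of 4 endothelial markers in each comparison at an adjusted p of 0.05 or less. Mesenchymal markers summed to 39957 to 41733 CPM in scramble and 35931 to 38165 CPM in shSrsf3 samples without ligand, with 1 higher and 6 lower of 10 without ligand and 1 and 5 with ligand. Over all tested genes, 45.9% passed without ligand and 41.0% with ligand. *Sox10* and *Foxd3* of the Schwann and glia list, *Cldn5* of endothelium, and *Myod1* of muscle were at 0. Epithelial markers summed to 7.30 to 10.3 CPM, Schwann and glia markers to 4.97 to 6.95 CPM, blood markers to 1.86 to 2.80 CPM, and muscle markers to 23.9 to 31.2 CPM, mostly from *Acta1*. Their part in the *Piezo2* difference was not tested.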

How the data were processed

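RNA-seq libraries were stranded, and the authors trimmed reads with BBDuk, quantified transcripts with Salmon 1.4.0 against GENCODE M26 on GRCm39, and deposited 1 table of expected counts (estimated read pairs per gene symbol, summed by tximport, with no scaling to library size). The tximport setting by which counts were derived is not given in the sources used here, and 16.3% of the values differed from a whole number (exact comparison, no tolerance). All 12 columns were assigned by their labels, and none was left out.

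Values were rounded, genes of low count were removed with filterByExpr (minimum count 10), libraries were normalized by TMM, and genes were fitted with the quasi-likelihood method of edgeR 4.0.16 in 1 model of 4 groups, with Benjamini-Hochberg adjustment over 15037 genes. DE genes combined an adjusted p at or under 0.05 with an at least 2-fold difference. The standard error was derived from the log2 fold change and its F statistic. With 3 samples in each group, no exact permutation test on a single value was used. DESeq2 1.42.0, R 4.3.3, Python 3.11.15, and limma 3.58.1 were also used, and the fit was tested on simulated data. Positions and transcripts were taken from GENCODE M39 on GRCm39 by symbol. For likeness, log2 CPM had a prior count of 2. Counting error alone does not describe the spread between cultures, for which the biological coefficient of variation was 0.0701. No pair of replicates agreed within sampling noise.

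The members, lists, and tests were chosen with earlier results of these data known. Named genes were the members, *Srsf3*, up to 6 DE genes and the 4 most abundant genes of each list, 5 neighbours on each side, and the 5 most alike genes of each member, of which some are not reported here.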

Additional observations from a re-analysis of the deposited data

How the results depend on the processing

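*Piezo2* and *Piezo1* kept their direction between shSrsf3 and scramble samples in all alternatives run, with log2 fold changes from -3.12 to -3.03 and -3.40 to -3.22 for *Piezo2* and 0.22 to 0.30 and 0.19 to 0.23 for *Piezo1* (without and with ligand) when each sample was left out in turn. Upon stimulation the same ranges were 0.13 to 0.18 in scramble and 0.06 to 0.15 in shSrsf3 cells for *Piezo1* and 0.06 to 0.11 and -0.23 to -0.05 for *Piezo2*, and the interaction was between -0.09 and -0.01 for *Piezo1* and between -0.31 and -0.14 for *Piezo2*. *Piezo1* upon stimulation of scramble cells passed the threshold with no filter on low counts (log2 fold change 0.16, adjusted p = 0.0106 by edgeR's quasi-likelihood test) and with DESeq2 (0.16, adjusted p = 0.0135). With the replicate number as a block it also passed (0.15, adjusted p = 0.0279 by edgeR's quasi-likelihood test). It did not pass with the size factors of DESeq2 or with 2 groups in the fit (adjusted p = 0.0650 and 0.113 by edgeR's quasi-likelihood test). The cause was not tested.

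Replicate numbers gave little sign of pairing. Correlations of same-numbered samples were between -0.14 and 0.20, 2 of 18 exceeded 0.1, and 6 of 12 samples correlated best with their own number. Those 2 were between scramble samples without and with ligand (replicate 2, 0.20, and replicate 3, 0.18). Weak correlations cannot exclude a pairing. The block gave 875, 820, 31, and 5 DE genes in the 4 comparisons against 864, 815, 30, and 6, and with it 1 calcium effector and 0 *Piezo1* neighbours were DE genes with ligand.

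The ratio of *Piezo2* to 100 *Piezo1* in scramble -PDGF-AA samples was 14.9997 with the longest transcripts as lengths, and without division by length it was 19.6, 1.92, 18.7, and 1.63 in scramble -PDGF-AA, shSrsf3 -PDGF-AA, scramble +PDGF-AA, and shSrsf3 +PDGF-AA samples.

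Counts of DE genes in the lists were small and moved with genes of few counts. Without a fold change minimum, genes were counted by an adjusted p of 0.05 or less alone. Between shSrsf3 and scramble samples, without and with ligand, 11 and 10 of 18 mechanosensitive channels and 7 and 6 of 13 Piezo regulators passed. So did 8 and 8 of 23 calcium effectors and 15 and 13 of 26 calcium channels and pumps. Among genes with 40 or more exons, 144 and 115 of 265 passed. Of the 365 genes with a locus of 300 kb or more, 226 and 214 passed (61.9% and 58.6%). Of 10 neighbours each, 8 and 4 passed for *Piezo1* and 5 and 4 for *Piezo2*. The shares over all tested genes were 45.9% and 41.0%. Upon stimulation of scramble cells, 1 Piezo regulator (7.69%) and 1 calcium channel or pump (3.85%) passed by adjusted p alone. The same held for 9 genes with 40 or more exons (3.4%) and 10 with a long locus (2.74%), beside 4.04% of all tested genes. In shSrsf3 cells 1 gene with a long locus passed (0.274%), beside 0.565% of all tested genes.

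Without ligand, 1 mechanosensitive channel was a DE gene in place of 2 with no filter, with DESeq2, and with 2 groups in the fit. With ligand, 1 calcium effector and 0 *Piezo1* neighbours were DE genes under each of these settings. Without a filter, 2 Piezo regulators were DE genes without ligand. The fit without the 3 libraries of lowest mapping rate had replicate 3 as its only scramble -PDGF-AA sample, so its counts of DE genes are not given.

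Leaving out each sample in turn gave 1 to 3 and 1 to 2 mechanosensitive channels without and with ligand, 1 to 2 calcium effectors with ligand, 2 to 4 calcium channels and pumps without ligand, 0 to 1 *Piezo1* neighbours with ligand, 0 to 1 *Piezo2* neighbours without ligand (0 without scramble -PDGF-AA replicate 1), and 0 to 1 genes with 40 or more exons upon stimulation of scramble cells (1 without scramble -PDGF-AA replicate 3).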
